A study of Mus musculus with 12 samples.

Results

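The genes described here encode 10 integrin chains that bind collagen, laminin, fibronectin, vitronectin or latent TGF-beta. They were taken by gene name, and all 10 were present in the gene tables of both settings, which list 26244 genes between them. Their RNA was measured in 12 libraries of 4T1, a mouse mammary carcinoma line that spreads to the lung, in 4 groups of 3. The lung old and lung young groups are 4T1 cells labelled with the fluorescent protein mNeonGreen, given by tail vein, 5000 cells a mouse, to Balb/c mice labelled as old or young. Lungs were taken after 4 weeks and 100000 cells sorted for each sample. The IFE old and IFE young groups are 4T1 cells cultured for 72 h without serum in 25% interstitial fluid extract (IFE) from lungs of old or young mice carrying 4T1 metastases. The ages of the mice are not given in the sources used here, and no source says whether the libraries of a group come from separate mice or cultures, so p-values measure the spread between these libraries, which may be technical. The titles of the cultured libraries carry the abbreviation shNT, which the sample protocols do not explain.

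Integrins are receptors made of an alpha and a beta chain that span the cell membrane and tie the matrix outside to the actin skeleton inside. The alpha chain largely sets which matrix protein is bound. The beta 1 chain, encoded by Itgb1, pairs with the alpha chains of Itga1 and Itga2, which bind collagen, of Itga3, which binds laminin, and of Itga5, which binds fibronectin. The alpha v chain of Itgav pairs with Itgb1 and with the chains of Itgb3, Itgb5, Itgb6 and Itgb8. The partners made by Itgb3 and Itgb5 bind vitronectin, and those made by Itgb6 and Itgb8 bind and activate latent TGF-beta. In carcinoma these receptors are studied for adhesion, invasion and growth in the lung.

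Itga2 changed most clearly with the age of the mouse, and its gene lies next to Itga1, the other collagen-binding chain among the 10 members. In the coordinates of the gene tables, for which the sources used here give no build, Itga2 (ENSMUSG00000015533) spans bases 114969617 to 115068636 of chromosome 13 and Itga1 (ENSMUSG00000042284) bases 115089632 to 115238500. Both are on the minus strand, with 20995 bases between them. RefSeq promoter sequences, of build GRCm38.p6, were found for 9 of the 10 members, all but Itgb3, in 11 windows, each of 250 bases before and 50 after a transcription start. Those of 4 members that rose in old lungs are shown, with each motif searched in capitals. On the minus strand, Itga1 has its window at chr13:115101915-115102214, Itga2 at chr13:114932051-114932350 and Itgb6, the first of its 2 starts, at chr2:60722554-60722853. On the plus strand, Itgb1 has its window at chr8:128685404-128685703.

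Itga1: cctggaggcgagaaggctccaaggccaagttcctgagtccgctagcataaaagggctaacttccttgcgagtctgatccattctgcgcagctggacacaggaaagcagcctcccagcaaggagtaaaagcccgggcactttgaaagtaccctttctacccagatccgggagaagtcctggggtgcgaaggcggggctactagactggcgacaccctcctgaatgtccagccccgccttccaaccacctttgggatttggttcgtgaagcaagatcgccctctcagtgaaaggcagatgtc
Itga2: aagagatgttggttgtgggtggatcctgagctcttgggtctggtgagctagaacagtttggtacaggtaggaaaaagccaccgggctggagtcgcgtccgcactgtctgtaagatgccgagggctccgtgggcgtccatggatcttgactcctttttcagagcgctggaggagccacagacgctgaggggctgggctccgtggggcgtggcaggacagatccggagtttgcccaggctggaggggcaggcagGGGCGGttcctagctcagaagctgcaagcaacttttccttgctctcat
Itgb1: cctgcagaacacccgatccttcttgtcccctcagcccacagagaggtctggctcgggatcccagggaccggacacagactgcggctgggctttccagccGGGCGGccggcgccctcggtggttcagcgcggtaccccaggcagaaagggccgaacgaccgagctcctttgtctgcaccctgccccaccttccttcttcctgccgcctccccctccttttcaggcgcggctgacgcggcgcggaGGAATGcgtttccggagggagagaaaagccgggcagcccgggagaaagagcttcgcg
Itgb6: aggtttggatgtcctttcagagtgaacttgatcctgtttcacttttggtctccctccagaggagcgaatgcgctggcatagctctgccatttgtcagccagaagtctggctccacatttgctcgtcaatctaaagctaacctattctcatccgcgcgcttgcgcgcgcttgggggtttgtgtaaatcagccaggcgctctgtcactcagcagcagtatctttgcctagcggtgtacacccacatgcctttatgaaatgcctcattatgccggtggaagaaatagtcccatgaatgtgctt

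Motifs were searched on both strands. The TEAD letters GGAATG occurred in 14.7% of all 32851 promoter windows of the table and, among the members' windows, in that of Itgb1, starting 7 bases before the transcription start. The GC box GGGCGG occurred in 35.7% of all windows. The Itga2 window held 1 match, which starts 3 bases into the transcript, and the Itgb1 window held 1 match. Windows of Itga3, Itga5, Itgav and Itgb5 held it too. The letters TGANTCA of AP-1 (7.81% of all windows), TATAAA of a TATA box (13.6%) and the SMAD palindrome GTCTAGAC (0.213%) had no match in the 4 windows shown. The Itga1 and Itgb6 windows held none of the 5 motifs. A match describes the letters and does not show a binding site.

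The order of the members was led by the laminin receptor pair in every group. Levels of different genes are compared here as FPKM, read counts divided by gene length and library size by the authors. Itga3 averaged 273 FPKM in lung old, 272 in lung young, 304 in IFE old and 278 in IFE young libraries, and Itgb1 averaged 272, 245, 289 and 309.6 FPKM in the same groups. Itgb1 lay above Itga3 in IFE young libraries and below it in lung young and IFE old libraries, and their ranges overlapped in lung old libraries. In every other step of the order, in all 4 groups, the ranges of neighbouring genes did not overlap. In both lung groups the order after these genes was Itgb5, Itga5, Itgav, Itga2, Itga1, Itgb3, Itgb6 and Itgb8. In both culture groups it was Itga2, Itgb5, Itgav, Itga5, Itgb6, Itgb3, Itga1 and Itgb8.

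**Figure D1:**
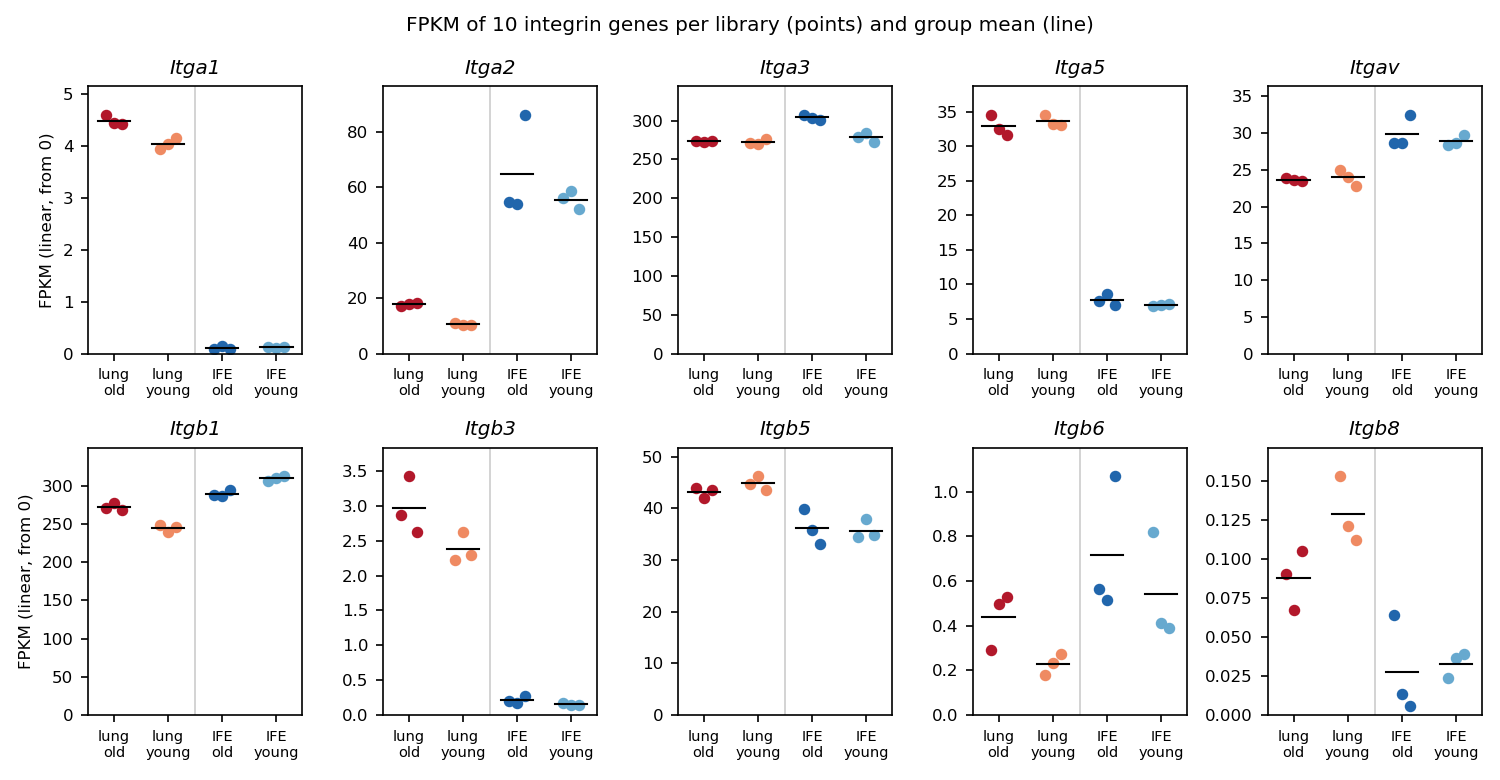
FPKM of each of the 10 integrin genes, with 1 panel a gene, its own linear axis from 0, 1 point a library and a line at the mean of 3 libraries, for lung old, lung young, IFE old and IFE young. Itga2 sits at 17.1 to 18.4 FPKM in lung old libraries, above all lung young libraries at 10.2 to 10.9, and its point at 86.3 in IFE old stands apart from the other cultured libraries.

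RNA of marker genes of other cell types was present in the sorted lung libraries, and its level differed between old and young. Library totals ran from 11679046 to 15053144 counts in lung and from 12299004 to 18129164 in culture. The 8 markers of 4T1 and epithelial identity, such as Epcam and Krt8, were present in all groups, with summed levels of 4454 to 4555 CPM (counts scaled to library size) in lung old and 3351 to 3501 in lung young libraries, and 7 rose and 1 fell. The 12 macrophage markers summed to 92.8 to 99.1 CPM in lung old and 746 to 762 in lung young libraries, and all 10 that could be tested fell. The 12 alveolar and airway markers summed to 88.2 to 103 CPM in lung old against 40.1 to 41.4 in lung young libraries, with 6 higher and 1 lower of 11 tested. The 10 fibroblast and pericyte markers summed to 424.5 to 434 CPM in lung old and 336 to 359 in lung young libraries, with 5 higher and 2 lower of 8. The 9 endothelial markers summed to 30.7 to 34.3 CPM in lung old and 22.9 to 25.9 in lung young libraries, with 3 higher and 0 lower of 8. The 8 platelet markers summed to 5.45 to 8.14 CPM in lung old and 13.2 to 17.1 in lung young libraries, with 1 lower of 3. In both culture groups 7 of the 12 macrophage markers, C1qa and Adgre1 among them, and 6 of the 10 fibroblast and pericyte markers, Dcn and Col3a1 among them, were at 0 or not listed, as was the endothelial marker Cdh5. By the test given in the next paragraph, 19.6% of all genes tested rose in old lungs and 20.4% fell. In bulk RNA, a smaller share of a cell type and less RNA per cell cannot be told apart.

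The first comparison set lung old against lung young cells. Of the 10 members, 5 rose and none fell, by edgeR's quasi-likelihood test with Benjamini-Hochberg adjustment over 14096 genes and an adjusted p under 0.05, here named a call. Of all genes tested, 40.0% were called, 19.6% as higher and 20.4% as lower, against 50% of the members, all of them higher. The median log2 fold change was 0.08 over the members and 0.00188 over all genes.

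Among the collagen-binding chains, Itga2 was higher in old lungs by more than any other abundant member. It measured 17.1, 17.8 and 18.4 FPKM in lung old libraries, against 10.9, 10.2 and 10.4 FPKM in lung young libraries. The groups did not overlap. The log2 fold change was 0.76 ± 0.044 (SE, n = 3 each), a 1.70-fold level (adjusted p = 3.3e-29, edgeR), and 10.3% of all genes had a larger change in either direction. Its neighbour Itga1 measured 4.60, 4.44 and 4.41 FPKM in lung old libraries and 3.93, 4.04 and 4.14 FPKM in lung young libraries. Those groups did not overlap either, but the rise was small, with a log2 fold change of 0.16 ± 0.047 (adjusted p = 0.00483, edgeR). Itga1 lost its call with limma on FPKM (adjusted p = 0.116) and in the test against a fold of 1.2. Platelets also carry Itga2. Platelet markers summed to 7.12 ± 1.45 CPM in lung old and 15.15 ± 1.94 CPM in lung young libraries, and their part in the result was not tested.

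The laminin- and fibronectin-binding chains stood at nearly the same level in both lung groups. Itga3 (ENSMUSG00000001507) measured 274, 272 and 273 FPKM in lung old and 271, 269 and 276 FPKM in lung young libraries. Its log2 fold change was 0.01 ± 0.018 (adjusted p = 0.659, edgeR). Itga5 (ENSMUSG00000000555), the alpha chain of the fibronectin receptor, measured 34.6, 32.5 and 31.6 FPKM in lung old and 34.5, 33.2 and 33.1 FPKM in lung young libraries (log2 fold change -0.03 ± 0.035, adjusted p = 0.581). Both pairs of groups overlapped, and at these standard errors neither gene passed the test.

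Their common partner Itgb1 (ENSMUSG00000025809, chromosome 8, 129412135 to 129459681 in the tables' coordinates) rose by a small and regular amount. It measured 270.4, 278 and 268 FPKM in lung old libraries, against 248, 239.8 and 246 FPKM in lung young libraries. No lung old library lay as low as a lung young one. The log2 fold change was 0.16 ± 0.019 (adjusted p = 2.42e-11, edgeR), which was not called against a fold of 1.2.

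Of the alpha v chain and its partners other than Itgb1, Itgb3 and Itgb6 rose. Itgav (ENSMUSG00000027087) measured 23.9, 23.6 and 23.5 FPKM in lung old and 25.0, 24.1 and 22.8 FPKM in lung young libraries. Itgb5 (ENSMUSG00000022817), its most abundant partner besides Itgb1, measured 43.9, 42.0 and 43.6 FPKM in lung old and 44.8, 46.2 and 43.6 FPKM in lung young libraries. Neither was called, with log2 fold changes of -0.01 ± 0.030 and -0.05 ± 0.036 and overlapping groups (adjusted p = 0.788 and 0.258, edgeR).

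Itgb3 (ENSMUSG00000020689), the chain of the vitronectin receptor that also serves platelets, measured 2.86, 3.43 and 2.62 FPKM in lung old and 2.22, 2.63 and 2.30 FPKM in lung young libraries. The groups overlapped slightly, and the log2 fold change was 0.33 ± 0.11 (adjusted p = 0.012, edgeR). That call was lost without lung old replicate 2 (adjusted p = 0.2), lung young replicate 1 (0.0664) or lung young replicate 3 (0.0565), and with limma on FPKM.

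Itgb6 (ENSMUSG00000026971, chromosome 2, 60428636 to 60552987 in the tables' coordinates), an epithelial chain, had the largest fold of the 10 from the second lowest level in lung. It had 27, 57 and 52 counts, or 0.293, 0.497 and 0.531 FPKM, in lung old libraries, against 19, 27 and 33 counts, or 0.181, 0.231 and 0.275 FPKM, in lung young libraries. All lung old libraries lay above all lung young ones. The log2 fold change was 0.95 ± 0.286 (adjusted p = 0.00488, edgeR), and the call was lost with limma on log2(FPKM + 0.1) (adjusted p = 0.0629). Alveolar and airway epithelium also makes this chain. Of its markers, 6 rose and 1 fell of 11 tested in the same libraries. Sftpc, a marker that rose, stood at 42.2 ± 2.18 CPM in lung old against 13.0 ± 0.292 CPM in lung young libraries. The part of this epithelium in the result was not tested.

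Itgb8 (ENSMUSG00000025321), the other activator of latent TGF-beta, was near the limit of detection. It had 13, 12 and 16 counts in lung old libraries, against 25, 22 and 21 counts in lung young libraries. The lung old libraries all lay below the lung young ones, but the log2 fold change of -0.55 ± 0.392 was not called (adjusted p = 0.272, edgeR). In all, 5 of the 10 members had groups that did not overlap, against 47.7% of all genes tested.

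**Figure D2:**
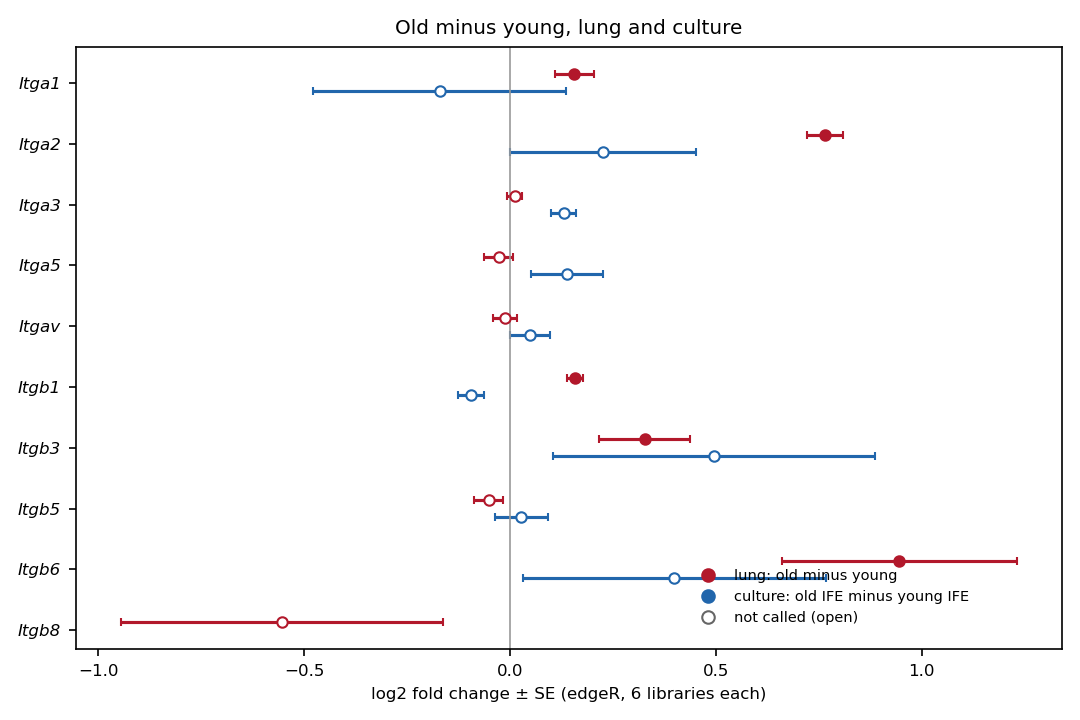
Log2 fold change of old minus young for each integrin gene in lung (red) and in IFE culture (blue), with bars of 1 SE and open circles where the gene was not called. In lung, Itga1, Itga2, Itgb1, Itgb3 and Itgb6 are filled and lie right of 0, while all culture points are open. Itgb8 had too few counts in culture for a test.

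Other genes of integrin adhesion are given by list for the lung libraries. Of the 17 other integrin chains, 13 were tested, of which 2 rose and 8 fell, where 19.6% of all genes rose and 20.4% fell. The median log2 fold change of these chains was -0.69. The 4 changes of lowest p were falls of Itgax, Itgb2 and Itgal, which are leukocyte chains, and of Itga9, which binds tenascin. Itgax, a marker of dendritic cells and macrophages, stood at 5.68 ± 0.183 CPM in lung old and 30.9 ± 1.9 CPM in lung young libraries. Itgb2, the common leukocyte beta chain, stood at 151 ± 7.23 CPM in lung old and 244 ± 2.55 CPM in lung young libraries. Macrophage markers fell in the same libraries. B cell markers summed to 10.4 ± 1.94 CPM in lung old and 20.8 ± 1.21 in lung young libraries, with 2 lower of 2 tested. Neutrophil markers summed to 48.5 ± 0.933 CPM in lung old and 54.5 ± 7.19 in lung young libraries, with 1 lower of 5. T and NK cell markers summed to 1.65 ± 0.285 CPM in lung old and 2.32 ± 0.438 in lung young libraries, with 0 called of 1. The part of these cell types was not tested.

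Activators and adhesion complex proteins moved both ways. Of 29 tested of 30, 12 rose and 6 fell, where 19.6% of all genes rose and 20.4% fell. The median log2 fold change of the list was 0.07. Fermt1, the epithelial kindlin that switches integrins on, rose to 71.5 ± 4.35 CPM in lung old, against 34.6 ± 1.46 CPM in lung young. Fermt3, the kindlin of blood cells, fell to 5.01 ± 1.09 CPM in lung old, against 29.8 ± 2.28 CPM in lung young. The part of macrophages, whose markers also fell, was not tested for Fermt3. Flna, the actin cross-linker filamin A, had a log2 fold change of 0.32 ± 0.017, and Tns4, a tensin that binds beta 1 tails, fell by 0.56 ± 0.027 on the log2 scale.

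Matrix ligands of these receptors were mostly higher in old lungs. Of 24 tested of 25, 17 rose and 5 fell, where 19.6% of all genes rose and 20.4% fell. The median log2 fold change of the list was 0.38. Lamb3, a laminin chain, stood at 164 ± 8.58 CPM in lung old and 64.0 ± 1.56 CPM in lung young libraries, with a log2 fold change of 1.36 ± 0.045. Ccn1, a matricellular ligand of alpha v integrins, rose to 922 ± 6.2 CPM in lung old, against 624 ± 5.93 CPM in lung young. Tgfbi, which binds collagen and integrins, went the other way, with a log2 fold change of -2.32 ± 0.051. The part of macrophages, whose markers fell in the same libraries, was not tested for Tgfbi. The ligand genes Col1a1, Col1a2 and Col3a1 are also fibroblast markers, a list of which 5 rose and 2 fell of 8 tested, and the part of fibroblasts was not tested.

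Genes of the latent TGF-beta complex, on which the receptors of Itgb6 and Itgb8 act, moved both ways. Of 8 tested, 1 rose and 4 fell, where 19.6% of all genes rose and 20.4% fell. The median log2 fold change of the list was -0.14. Tgfb1 stood at 84.5 ± 2.69 CPM in lung old and 99.8 ± 2.06 CPM in lung young libraries, and Tgfb3 at 100.3 ± 1.55 CPM in lung old and 122 ± 6.32 CPM in lung young libraries. RNAs of proteins that hold the latent form on the cell surface also fell. Lrrc32 stood at 10.5 ± 1.09 CPM in lung old and 21.0 ± 2.69 CPM in lung young libraries, and Nrros, the form of macrophages and microglia, had a log2 fold change of -3.24 ± 0.158. Ltbp3, a latent binding protein of the matrix and the gene of this list that rose, had a log2 fold change of 0.06 ± 0.019. All 10 macrophage markers tested fell in the same libraries, and their part was not tested.

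**Figure D3:**
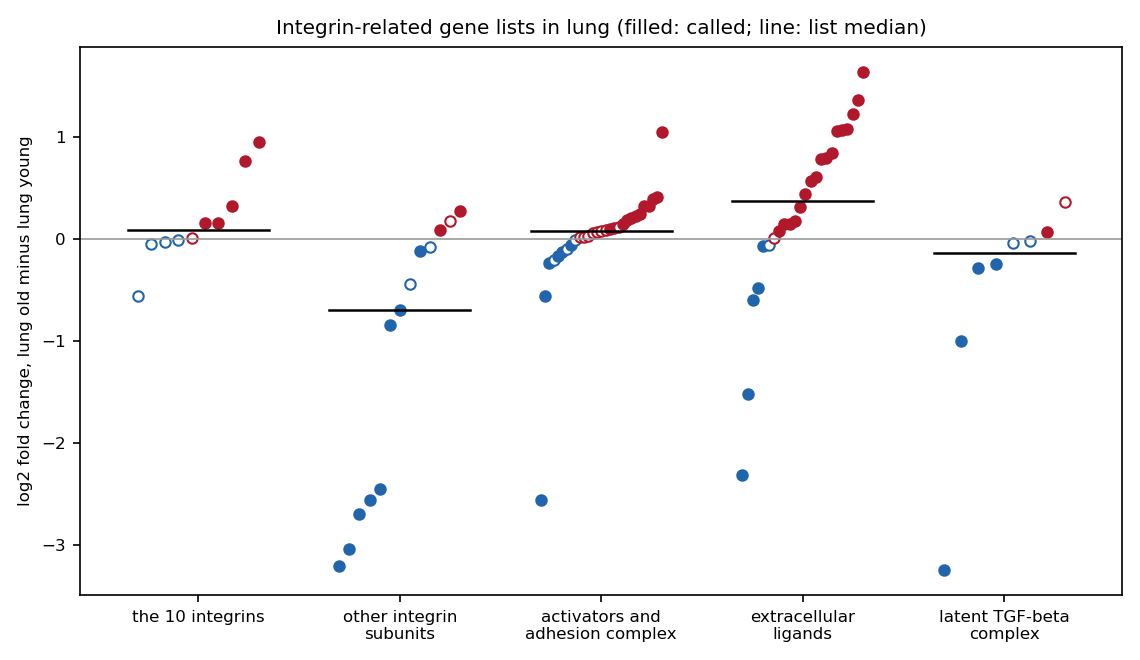
Log2 fold change of lung old minus lung young for each tested gene of 5 lists, the 10 integrins and the lists of other integrin chains, adhesion complex, ligands and latent TGF-beta complex, with filled points called and a line at each median. The ligands lie mostly above 0, with a median of 0.38, and the other integrin chains mostly below 0, with a median of -0.69.

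The second comparison set cells in IFE of old mice against cells in IFE of young mice. None of the 9 members that could be tested was called, where 0.0839% of 13118 genes were called. DESeq2 and limma also called 0 members. Itga3 measured 308, 304 and 301 FPKM in IFE old libraries, against 278, 284 and 272 FPKM in IFE young libraries. Its groups did not overlap, and the log2 fold change was 0.13 ± 0.031 (adjusted p = 0.191, edgeR). It was called higher without IFE old replicate 3 (adjusted p = 0.00747) and when genes of low count were kept (adjusted p = 0.0409). Itgb1 measured 288, 286 and 295 FPKM in IFE old libraries and 307, 309.8 and 312 FPKM in IFE young libraries, also without overlap, with a log2 fold change of -0.09 ± 0.031 (adjusted p = 0.52, edgeR). Groups did not overlap for 2 of the 9 members and for 13.1% of all genes tested.

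A single library set the culture values of Itga2. It measured 54.8, 53.9 and 86.3 FPKM in IFE old libraries and 56.1, 58.7 and 52.2 FPKM in IFE young libraries. IFE old replicate 3 was high and the other 2 lay within the range of IFE young. The log2 fold change was 0.23 ± 0.226 with this library and -0.03 without it (adjusted p = 0.896 and 0.857, edgeR). The same library was highest for Itgb6, at 1.07 FPKM against 0.564 and 0.514 in the other IFE old libraries and 0.822, 0.411 and 0.389 in IFE young libraries, and for Itgav, at 32.5 FPKM against 28.6 in both others and 28.4, 28.7 and 29.8 in IFE young. It stood farthest from its own group over all genes tested in culture, at a mean difference of 0.211 on the log2 CPM scale against 0.172 to 0.186 for the other 5.

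The remaining members were low in culture or overlapped. Itga5 measured 7.62, 8.62 and 7.02 FPKM in IFE old and 6.90, 7.08 and 7.17 FPKM in IFE young libraries. Itgb5 measured 39.9, 35.7 and 33.1 FPKM in IFE old and 34.4, 37.9 and 34.8 FPKM in IFE young libraries. Both overlapped between the groups, with log2 fold changes of 0.14 ± 0.086 and 0.03 ± 0.064 (adjusted p = 0.792 and 0.962, edgeR). Itga1 had 23 to 39 counts and Itgb3 10 to 25 counts in the 6 cultured libraries, and neither was called. Itgb8 had 13, 2 and 1 counts in IFE old libraries and 4, 5 and 7 in IFE young libraries, too few for the test.

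Whether age acted alike in lung and culture was tested as an interaction over 12 libraries and 14318 genes, of which 9.10% had a more positive and 8.37% a more negative change in lung. Of the 10 members, Itgb1 had a more positive change in lung, by 0.25 ± 0.041 on the log2 scale (adjusted p = 3.19e-05, edgeR). Itga3 had a more negative one, by -0.12 ± 0.039 (adjusted p = 0.0237, edgeR), which was not called without IFE young replicate 3 (adjusted p = 0.0646). For Itga2 the difference was 0.53 ± 0.245 and was not called (adjusted p = 0.19, edgeR). Without IFE old replicate 3 it was 0.79 and called (adjusted p = 2.17e-20), and so was that of Itga5, at -0.23 (adjusted p = 0.0233).

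The last comparisons set lung cells against cultured cells at each age. The settings differ in host, sorting, label, serum and medium together, so the sources of a difference between them cannot be told apart. The contrasts were fitted to the counts of 12 libraries, and FPKM values of the settings come from tables made separately. At old age 7 members were higher and 1 lower in lung, where 38.6% of genes were higher and 36.1% lower. At young age 6 were higher and 2 lower, where 39.3% of genes were higher and 36.9% lower. Itga3 at both ages and Itgb1 at old age are among those called higher, though their mean FPKM were lower in lung.

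The collagen-binding chains among the members went opposite ways. Itga1 was close to absent in culture, at 0.0885, 0.142 and 0.0894 FPKM in IFE old and 0.126, 0.1004 and 0.129 FPKM in IFE young libraries, against 3.93 to 4.60 FPKM in lung. Its level in lung was 52.3-fold that in culture at old age (log2 difference 5.71 ± 0.109) and 41.1-fold at young age (5.36 ± 0.108). Itga2 was lower in lung, with log2 differences of -1.58 ± 0.173 at old and -2.11 ± 0.179 at young age (adjusted p = 2.8e-05 and 4.06e-06, edgeR). As FPKM, Itga2 was 3.96 ± 0.228 times as abundant as Itga1 in lung old and 2.61 ± 0.143 times in lung young libraries, against at least 381-fold in each cultured library. These ratios rest on the gene lengths used, 7133 bases for Itga2 and 18599 for Itga1. Without division by length, Itga2 and Itga1 stood at 88.0 ± 2.69 and 88.1 ± 2.51 CPM in lung young libraries. In lung old libraries they stood at 148 ± 5.9 and 97.7 ± 1.87 CPM. Pelo lies within Itga1 on the same strand, so reads of the 2 genes could be mixed, which was not tested. Reads assigned to Pelo came to 1.25 ± 0.0582 CPM in lung old and 1.52 ± 0.326 CPM in IFE old libraries, and to 1.31 ± 0.307 CPM in lung young and 2.15 ± 0.381 CPM in IFE young libraries.

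Itgb3 and Itga5 were also higher in lung. Itgb3 measured 0.205, 0.174 and 0.271 FPKM in IFE old and 0.176, 0.138 and 0.146 FPKM in IFE young libraries, and its level in lung was 16.6-fold that in culture at old and 18.8-fold at young age. For Itga5 the log2 difference was 2.38 ± 0.058 at old and 2.54 ± 0.059 at young age, a 5.19-fold and a 5.83-fold level. Itgb8 had log2 differences of 1.80 ± 0.566 at old and 2.23 ± 0.533 at young age, on 25 counts or fewer in every library. It had too few counts for the culture test and passed the filter of the 12 libraries through its lung level, so its call gives no support. Without Itgb8, 6 members at old age and 5 at young age were called higher in lung.

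Itgav was not called at either age, with log2 differences of -0.05 ± 0.043 at old and 0.01 ± 0.043 at young age. As FPKM, Itgav averaged lower in lung, at 23.7 in lung old against 29.9 in IFE old libraries. At young age it averaged 24.0 FPKM in lung young against 29.0 in IFE young libraries. The FPKM ranges of lung and culture did not overlap at either age, so whether Itgav differed depended on the scale. Itgb5 was 1.45-fold higher in lung at old age and 1.54-fold higher at young age. Itga3 had log2 differences of 0.13 ± 0.027 at old and 0.26 ± 0.027 at young age. As FPKM, Itga3 averaged lower in lung, at 273 in lung old against 304 in IFE old libraries. At young age it averaged 272 FPKM in lung young against 278 in IFE young libraries. The direction of its difference thus depended on the scale. Itgb1 was 1.15-fold higher in lung at old age and not called at young age (adjusted p = 0.112, edgeR). As FPKM, Itgb1 averaged lower in lung, at 272 in lung old against 289 in IFE old libraries. At young age it averaged 245 FPKM in lung young against 309.6 in IFE young libraries. Its direction at old age thus also depended on the scale. Itgb6 was lower in lung at young age, by -0.94 ± 0.353 on the log2 scale, and not called at old age (-0.40 ± 0.316). The main fit called 2 members lower in lung at young age, Itga2 (adjusted p = 4.06e-06, edgeR) and Itgb6 (adjusted p = 0.0199, edgeR). Only 1 member was called lower without lung young replicate 1, lung young replicate 2 or IFE young replicate 1. Which gene lost its call in those fits was not recorded.

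Fibroblasts, pericytes and endothelium carry Itga1, Itga5 and Itgb3 as well. Fibroblast and pericyte markers summed to 428 ± 5.38 CPM in lung old and 347 ± 11.5 in lung young libraries, against 20.6 ± 1.77 in IFE old and 19.4 ± 1.63 in IFE young libraries. Endothelial markers summed to 32.4 ± 1.82 and 23.9 ± 1.72 CPM in lung old and lung young, against 0.429 ± 0.0918 and 0.457 ± 0.0569 in IFE old and IFE young libraries. Platelets also use Itgb3, and platelet markers summed to 7.12 ± 1.45 CPM in lung old and 15.15 ± 1.94 in lung young libraries. In IFE old and IFE young libraries they summed to 6.005 ± 0.481 and 4.92 ± 0.723 CPM. Macrophage markers summed to 95.6 ± 3.18 and 754 ± 7.75 CPM in lung old and lung young, against 5.04 ± 0.682 and 4.91 ± 0.477 in IFE old and IFE young libraries. The part of any of these cell types in the lung values of these 3 chains was not tested.

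**Figure D4:**
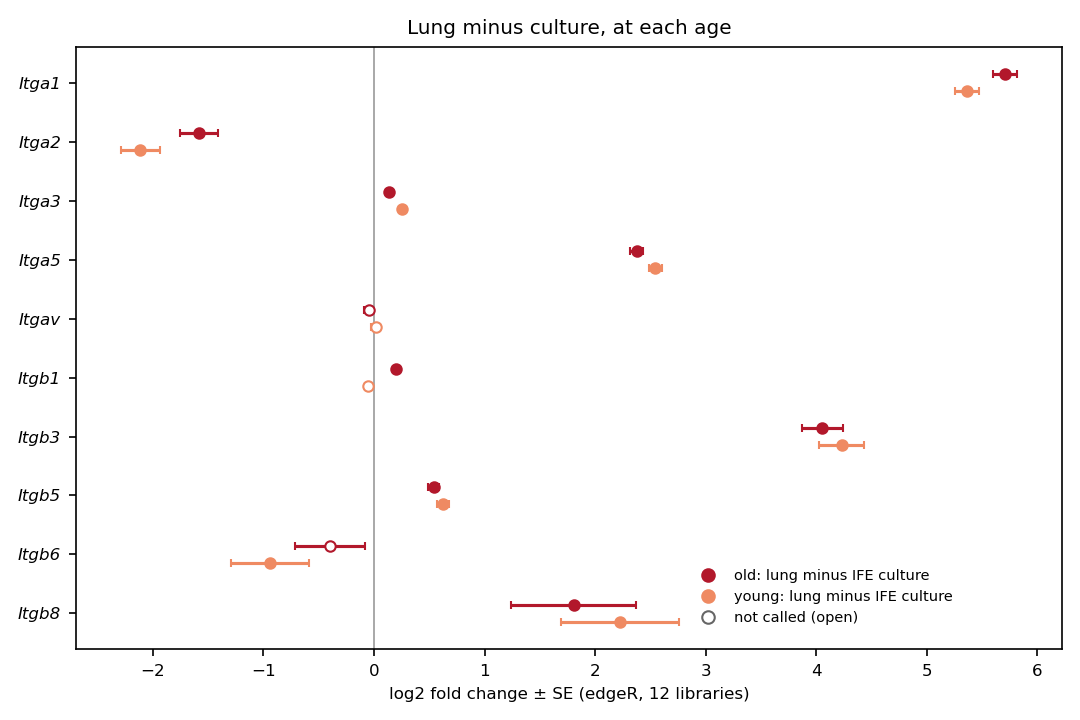
Log2 difference of lung minus IFE culture for each integrin gene at old (red) and young (orange) age, with bars of 1 SE and open circles where the gene was not called. Itga1 lies farthest right at 5.71 and 5.36, Itgb3 and Itga5 follow, and Itga2 lies left of 0 at both ages. Itgav lies near 0 on this scale, though not as FPKM.

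The mix of chains shifted with the setting. Itga3 made up 77.6 ± 0.256% of the summed FPKM of the 5 alpha chains in lung old, 79.1 ± 0.616% in lung young, 74.8 ± 3.75% in IFE old and 75.2 ± 0.148% in IFE young libraries. Itga2 took 5.05 ± 0.205% in lung old and 3.05 ± 0.0886% in lung young libraries, against 15.9 ± 3.76% in IFE old and 15.02 ± 0.547% in IFE young. Itga5 took 9.34 ± 0.397% in lung old and 9.76 ± 0.234% in lung young, against 1.91 ± 0.269% and 1.90 ± 0.0676% in IFE old and IFE young. Among the beta chains Itgb1 held 85.4 ± 0.375% in lung old, 83.7 ± 0.636% in lung young, 88.6 ± 0.962% in IFE old and 89.5 ± 0.470% in IFE young, and Itgb5 nearly all of the rest. These are shares of RNA and not of receptor on the surface.

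**Figure D5:**
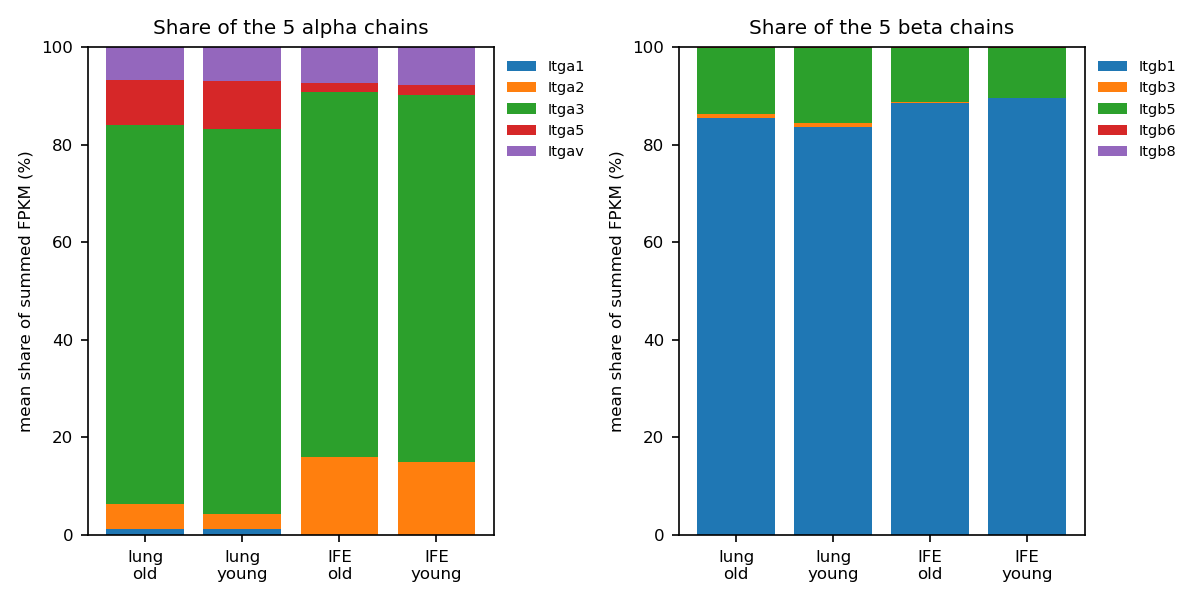
Mean share, in percent of summed FPKM over 3 libraries, of the 5 alpha chains (left) and the 5 beta chains (right) in each group. Itga2 widens to 15.9% and 15.02% in the IFE old and IFE young groups and Itga5 narrows to 1.91% and 1.90%, while Itgb6 and Itgb8 are too small to be seen.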

How the data were processed

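RNA of 12 libraries of 4T1 cells was measured after poly-A selection. The protocol, per the labels, names both directional and non-directional preparation, so genes that overlap others (Itga1 and Itgav) are uncertain. For each setting the authors deposited raw counts per gene, a normalized signal and FPKM. Alignment and counting tools, per the submitters' processing notes, include featureCounts 1.5.0-p3, HISAT2 2.0.5 and DESeq2. Those notes list the human build GRCh38, while the rows are mouse Ensembl genes. The deposited signal is the count divided by 1 factor per library, and in all 12 libraries 100.0% of values came out whole within 0.001 reads. Lung young replicate 3 entered with these whole reads, and deposited counts served for the other 11 libraries.

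Genes were filtered with edgeR's default (14096 in lung, 13118 in culture, 14318 over both), scaled by TMM and tested with edgeR 4.0.16 in R 4.3.3 (quasi-likelihood, robust), with adjustment over all genes. SE is the log2 fold change divided by the root of its F. CPM use TMM-scaled library sizes. Values after ± are SD of 3 libraries for levels and SE for log2 fold changes. Alternatives were RLE scaling, no filter, DESeq2 1.42.0, limma 3.58.1 on log2(FPKM + 0.1) and log2(FPKM + 1), a fold of 1.2, a replicate block, and leaving out each library. The lung test was tried on simulated counts of 13885 genes, where it found 79% of 1.5-fold and 85% of 2-fold changes and 5.75% of its calls were false. The culture test, on 12931 genes, found 69% and 87%, with 4.29% false. The interaction test, on 13987 genes, found 46% of 1.5-fold and 71% of 2-fold changes, with 8.59% false. In each simulation 200 genes were changed in a single group, and all others had equal means in every group. In the data many more genes differed, with 40.0% called in lung. These rates therefore do not give the error rates of the tests on these data.

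The members and lists were chosen with earlier results of these data known. All members are named. Other lists name up to 4 called genes of lowest p in lung and every gene called in culture, which was Ccn2 alone, a matrix-associated growth factor (log2 fold change 0.60 ± 0.085, adjusted p = 0.00712, edgeR). One gene that the rule picks is not reported here. Ltbp3, Krt8 and Pelo are named outside that rule, chosen after their values were seen.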

Additional observations from a re-analysis of the deposited data

Results flagged for a closer look

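In the interaction test, 2 integrin genes changed with age by different amounts in lung and in culture. Itgb1 had a difference of 0.25 on the log2 scale (0.2497, adjusted p = 3.19e-05, edgeR), with all 3 lung old libraries above lung young and all 3 IFE old libraries below IFE young. Itga3 had a difference of -0.12 (-0.1227, adjusted p = 0.0237, edgeR), with overlapping groups in lung and all 3 IFE old libraries above IFE young. Neither culture change was called by itself. Macrophage markers summed to 95.6 CPM in lung old and 754 in lung young libraries, against 5.04 in IFE old and 4.91 in IFE young libraries, and their part in these differences was not tested.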

How the results depend on the processing

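The 5 rises in lung were also called with RLE scaling, DESeq2, no filter and the replicate block. Against a fold of 1.2, 1853 genes, where the main test called 5639, and 2 members were called in lung (Itga2 and Itgb6) and 0 genes in culture. With limma on FPKM 2 members were called in lung with either pseudocount (Itga2 and Itgb1), and 2 genes in culture. The culture count of 11 genes was 70 with no filter, with 1 member (Itga3), and 30 with DESeq2. It ran from 1 to 183 with a library left out, with 0 to 1 members, and was 183 without IFE old replicate 3. In the interaction 1 to 2 members were higher and 0 to 2 lower with a library left out, and at young age 1 to 2 were lower in lung than in culture.

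With a library left out, some uncalled values changed sign. In lung, Itga5 ran from -0.06 (-0.05898) to 0.00236 and Itgav from -0.047 to 0.0176. In culture, Itga2 ran from -0.0273 to 0.342, Itgav from -0.0124 to 0.0772, Itgb5 from -0.0518 to 0.0932 and Itgb6 from -0.0039 to 0.845. In the interaction, Itgb3 ran from -0.314 to 0.00818 and Itgb8 from -0.888 to 1.18. Itga2 in lung kept its call in all 13 alternatives, at 0.71 to 0.79.

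The replicate numbers gave no sign of pairing: deviations of same-numbered libraries correlated at -0.00437 to 0.00363 in lung and -0.0274 to 0.0308 in culture. With the replicate block 5655 genes were called in lung, 7 in culture and 2458 in the interaction, and no call of a member changed. Members with fewer than 60 counts a library in lung (Itgb6, Itgb8) are limited by depth.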

Other observations

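The summed FPKM of the alpha chains of Itga1, Itga2, Itga3 and Itga5, divided by that of their partner Itgb1, was 1.21 ± 0.025 in lung old and 1.31 ± 0.0177 in lung young libraries (SD, n = 3 each), and 1.30 ± 0.0327 in IFE old and 1.10 ± 0.0355 in IFE young libraries. The groups did not overlap within either setting, and the order of old and young was opposite in the 2 settings. Itga3 makes up most of the alpha sum, so this ratio largely repeats the values of Itga3 and Itgb1 given above. With 3 libraries against 3 no exact test can go below 0.10, and none was run.

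Over the 12 libraries, the protein-coding genes whose centred log2 CPM profile lay closest to that of Itgb6, the member with the largest rise in lung, were Sowahb, Smim36 and Ogdhl, with root mean square differences of 0.307, 0.333 and 0.367, against a median of 0.671 over 12113 genes. For Itgb8, the member with the lowest log2 fold change in lung, they were Rasl10a, B3gnt7 and Crybg2, at 0.351, 0.368 and 0.389, against a median of 1.11. Genes picked as the closest lie below the median by choice, so the median lends them no support. Itgb8 passed the filter of the 12 libraries through its lung level. Both members have few counts, so the likeness is a description of these libraries.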
